A study of Mus musculus with 21 samples.

Results

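The miRNAs described here are the mature products of the hairpin genes Mir199a, Mir214, Mir143 and Mir145a, best known from mesenchyme and smooth muscle. Their names are mmu-miR-199a-5p, mmu-miR-199a-3p, mmu-miR-214-3p, mmu-miR-214-5p, mmu-miR-143-3p, mmu-miR-145a-5p and mmu-miR-145a-3p. Of these 7 names, 6 have an entry among the 1647 mature miRNAs of the count table. miR-199a-3p has none, so no value can be given for it, and all 6 of the others were tested in each organ.

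The counts come from small RNA sequencing of the mouse cochlea and of the superior olivary complex (SOC), an auditory centre of the hindbrain. All animals were untreated wild-type mice of both sexes, taken at embryonic day 16 (E16), on the day of birth (P0) and at postnatal day 16 (P16). Cochlear samples, labelled as sensory epithelium, came from C57BL/6JOlaHsd mice and were prepared with Direct-zol and the SMARTer smRNA-Seq kit, whereas SOC samples came from C57Bl6/J mice and were prepared with innuPrep and TruSeq Small RNA. Tissue of several animals was pooled for each sample, so every p-value below measures the spread between pools.

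For E16, P0 and P16 there were 2, 4 and 4 cochlear libraries, and 4, 4 and 3 from the SOC. Organ coincides with strain and kit, so where a member's level differs from organ to organ, tissue and kit cannot be told apart, and members are compared between ages within an organ, as counts-per-million (CPM) scaled by the trimmed mean of M values (TMM). Each organ's comparisons share their libraries, above all those of E16, which serve as the reference for P0 and for P16. miR-214-3p is abundant in the cochlear samples (mean 45137 CPM at E16, beside 51105 for the hair cell miRNA miR-183-5p). Which cells of the tissue held it was not tested. The SOC libraries stand apart in sets that follow age only in part. miR-99b-5p takes over 10% of all counts in replicates 2 and 3 of E16 and of P0 (set A). miR-191-5p takes under 1% in P0 replicate 4 with P16 replicates 2 and 3 (set C). The rest form set B (replicates 1 and 4 of E16, replicate 1 of P0 and of P16). Set A has no P16 library and set C no E16 library, so set and age cannot be fully told apart. These sets were defined after the counts had been seen, so members in the SOC are given with all libraries, within sets, and without set A or set C.

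miR-199a and miR-214 are cut from a shared long noncoding transcript, Dnm3os, which is active in embryonic mesenchyme and skeletal precursors. miR-143 and miR-145a are likewise made together and are abundant in vascular smooth muscle and pericytes. Mesenchyme surrounds the developing sensory epithelium of the cochlea, and vessels and meninges bring such cells to the brain.

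The mature miR-199a and miR-214 sequences are printed because the seed (bases 2 to 8, in capitals) decides which transcripts each arm can pair with, and because miR-199a-3p, absent from the table, has its whole sequence in common with another miRNA. miR-199a-5p lies at chr1:162217844-162217866, miR-199a-3p at chr1:162217883-162217904, miR-214-5p at chr1:162223397-162223418 and miR-214-3p at chr1:162223438-162223459, all on the plus strand (RefSeq, build GRCm38.p6, matched by miRNA name).
mmu-miR-199a-5p: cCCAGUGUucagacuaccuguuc
mmu-miR-199a-3p: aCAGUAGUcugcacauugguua
mmu-miR-214-5p: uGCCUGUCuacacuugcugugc
mmu-miR-214-3p: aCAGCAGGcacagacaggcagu

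The arms of each hairpin carry different seeds, so the arms can pair with different transcripts. Among 1679 mature mouse names in RefSeq, the seeds of miR-199a-5p and miR-214-5p occur in 1 name each, whereas that of miR-214-3p occurs in 2, of which 1 (miR-214-3p itself) has an entry in the table. miR-199a-3p is identical to miR-199b-3p over its full length. RefSeq names with a mature sequence in common form 4 groups of 9 names, miR-199a-3p among them, and 0 of the 9 have an entry, whereas 1415 of all names do. miR-199a-5p differs from the matching stretch of the Mir199b hairpin by 1 base, at position 10 of the miRNA. This base lies outside the seed, so the Mir199b hairpin holds the same seed as miR-199a-5p. The count of names above does not include miR-199b-5p, which has an entry in the count table.

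Mir199a-2 (chr1:162217814-162217923) and Mir214 (chr1:162223368-162223477) lie 5444 bases apart, each within an exon of Dnm3os and opposite to an intron of Dnm3 (GENCODE). miR-199a-5p can also come from Mir199a-1 on chromosome 9, which lies opposite to an intron of Dnm2, and reads of these copies cannot be told apart. The promoter of Dnm3os is printed because miR-199a-5p, miR-214-3p and miR-214-5p fell together in the SOC (below). It spans chr1:162217373-162217672 on the plus strand, from 250 bases before the start to 50 after it, with its CArG box in capitals (RefSeq, build GRCm38.p6, matched by gene symbol).
Dnm3os: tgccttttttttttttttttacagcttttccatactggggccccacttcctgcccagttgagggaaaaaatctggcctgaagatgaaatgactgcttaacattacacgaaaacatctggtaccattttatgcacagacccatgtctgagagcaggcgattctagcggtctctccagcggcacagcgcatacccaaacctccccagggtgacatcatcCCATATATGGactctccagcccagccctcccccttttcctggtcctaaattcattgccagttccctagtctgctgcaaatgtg

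Read on the plus and minus strands, this promoter holds 1 CArG box, of 10 bases, which starts 33 bases before the transcript start. Such a box occurs in 535 of 32851 promoters (1.63%). The shorter E-box, CANNTG, occurs 3 times, none overlapping the CArG box, against a median of 1 in all promoters, and 17.6% of promoters hold as many or more. A match describes the sequence and says nothing about which factor was bound in these tissues.

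Mir145a and Mir143 lie 1301 bases apart on the minus strand of chromosome 18, beside the long noncoding RNA gene Carmn on the same strand. miR-143-3p, miR-145a-5p and miR-145a-3p are therefore neighbours in the genome, as are the miR-199a and miR-214 arms.

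miR-199a-5p was a low-abundance miRNA of the cochlea, measured from few counts. Its levels were 329 and 212 CPM at E16, 102, 48.7, 57.8 and 144 at P0, and 66.3, 54.5, 46.5 and 22.3 at P16. Every E16 value lies above every later value, while P0 and P16 overlap. These levels rest on 121 and 122 counts at E16 and on 3 to 26 counts per library afterwards. miR-214-3p, the abundant arm of its hairpin, measured 46819 and 43456 CPM at E16, 59009, 72902, 47869 and 67378 at P0, and 10452, 15867, 9419.8 and 8712 at P16. Its P0 values lie just above those of E16, and every P16 value lies far below all earlier values. miR-214-5p, the scarce arm, measured 172 and 182 CPM at E16, 37.4, 87.7, 51.4 and 49.8 at P0, and 45.9, 7.78, 6.64 and 81.8 at P16. It was highest at E16 in every library, and P0 and P16 overlap.

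**Figure D1:**
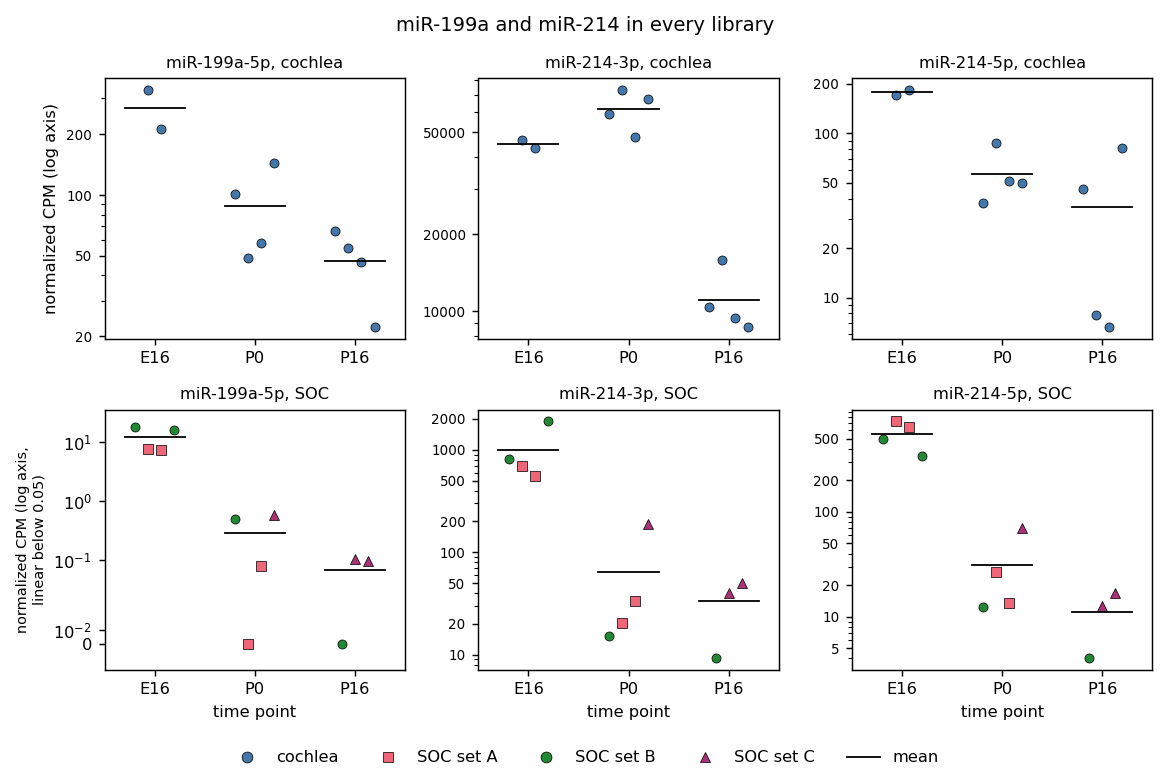
Levels of miR-199a-5p, miR-214-3p and miR-214-5p in each library (TMM-scaled CPM), cochlea n = 2, 4 and 4 and SOC n = 4, 4 and 3 at E16, P0 and P16.

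The levels figure shows each library as a point, so the low counts and the spread within a group can be read from it. miR-214-3p exceeded miR-199a-5p and miR-214-5p in every cochlear library. In the cochlea at E16 it was followed by miR-143-3p and miR-145a-5p, which overlapped. Then came miR-199a-5p, miR-145a-3p and miR-214-5p by mean, each overlapping the next.

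Members were tested within each organ with edgeR's quasi-likelihood test, and a miRNA was called at a Benjamini-Hochberg false discovery rate (FDR) under 0.05, a change over 1.5-fold and no overlap between the groups. Between E16 and P0, 5 of the 6 members were called in the cochlea, 4 lower and 1 higher, where 24.4% of all miRNAs were called (219 of 896). This last count ranged from 106 (without E16 replicate 2; 135 without E16 replicate 1) to 255 when a library was left out. The filter on low counts asked for over 1 CPM in 2 libraries of an age, and at cochlear depth a single count is over 1 CPM. The 896 can thus include miRNAs of very few counts, a limit of every share of cochlear miRNAs given here and below. The members had a median log2 fold change of -1.55, and all miRNAs one of 0.00. miR-199a-5p fell 3.07-fold on the means, lower in 4 of 4 P0 libraries (log2 fold change -1.61, SE 0.54, edgeR FDR = 0.0143). miR-214-5p fell 3.13-fold, again lower in 4 of 4 libraries (-1.63, SE 0.60, edgeR FDR = 0.0294). miR-214-3p was the member that was not called: it was higher in 4 of 4 libraries by 1.37-fold (0.45, SE 0.42, edgeR FDR = 0.438).

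These calls depended on single libraries, E16 having only 2. The call of miR-199a-5p was lost without E16 replicate 1 (-1.36, edgeR FDR = 0.221), E16 replicate 2 (-1.89, 0.0507) or P0 replicate 2 (-1.40, 0.0748). That of miR-214-5p was lost without E16 replicate 1 (-1.75, edgeR FDR = 0.115), E16 replicate 2 (-1.56, 0.202), P0 replicate 1 (-1.50, 0.0819), P0 replicate 3 (-1.58, 0.0566) or P0 replicate 4 (-1.57, 0.0749), and with DESeq2 (-1.65, FDR = 0.0670). Neither was called in a single fit of all 21 libraries (edgeR FDR = 0.175 and 0.158). Both kept their direction throughout. Scaling bears on the direction of miR-214-3p: library totals move the median of all cochlear miRNAs by -0.43 for P0 against E16 and by -0.44 for P16 against E16, and under them miR-214-3p was unchanged at P0 (log2 fold change 0.00). Under totals the share of higher miRNAs among all calls went from 70 of 219 (32.0%) to 36 of 231 (15.6%) at P0, and from 98 of 265 (37.0%) to 65 of 277 (23.5%) at P16, both against E16.

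By P16 all of the cochlear miR-199a/miR-214 members were below their E16 levels. Of the 6 members, 4 were called between E16 and P16, 3 lower and 1 higher, where 29.6% of all miRNAs were called (265 of 896, or 160 without E16 replicate 2, to 283 with a library left out; median log2 fold change of the members -1.34, of all miRNAs -0.09). miR-214-3p fell 4.06-fold, lower in 4 of 4 libraries (log2 fold change -2.02, SE 0.40, edgeR FDR = 4.17e-06). miR-199a-5p fell 5.71-fold, lower in 4 of 4 libraries (-2.47, SE 0.56, edgeR FDR = 9.44e-05). miR-214-5p fell 4.98-fold, lower in 4 of 4 libraries (-2.29, SE 0.63, edgeR FDR = 0.0016). These 3 calls held whichever library was left out, but in a single fit of all 21 libraries those of miR-214-3p (-1.94, edgeR FDR = 0.0614) and miR-214-5p (-2.15, 0.0520) were lost. Fewer cells of a type and less RNA per cell cannot be told apart in these counts, here and in every comparison below.

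After birth, miR-214-3p was the member that fell in the cochlea. Of the 6 members, 1 was called between P0 and P16, where 10.5% of all miRNAs were called (94 of 896, or 84 to 133 with a library left out; 35 higher, 59 lower; median of the members -0.08, of all miRNAs 0.05). miR-214-3p was 5.56-fold lower in 4 of 4 P16 libraries (log2 fold change -2.48, SE 0.36, edgeR FDR = 2.31e-10), and this held without any library. miR-199a-5p (-0.86, SE 0.53, edgeR FDR = 0.274) and miR-214-5p (-0.66, SE 0.60, edgeR FDR = 0.496) overlapped between P0 and P16. Whether the arms of Mir214 changed by different amounts is given by their ratio (below). Summed, the miR-199a/miR-214 members averaged 45585 CPM at E16, 61934 at P0 and 11196 at P16.

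The miR-143/miR-145a members of the cochlea took other courses. miR-143-3p, the main product of Mir143, measured 1906 and 1964 CPM at E16, 1294, 579.6, 353 and 509.5 at P0, and 4219, 1198, 3532 and 2446 at P16. It was lowest at P0 on average, and P16 replicate 2 lies below E16 and within the P0 range. miR-145a-5p, the abundant arm of Mir145a, measured 1819 and 1950.3 CPM at E16, 4108, 4101, 4488 and 4652 at P0, and 6621, 10303, 4156 and 3397 at P16. Every later value lies above E16, with P0 libraries close together and P16 libraries spread around them. P16 replicate 2, which holds the highest value, stands apart, with a TMM factor of 0.648 against 0.983 to 1.08 in the other P16 libraries. It also has the lowest summed levels of hair cell miRNAs (16684 CPM) and epithelial miRNAs (2498 CPM) at P16. miR-145a-3p, the scarce arm, measured 149.8 and 264 CPM at E16, 37.4, 43.8, 12.8 and 66.5 at P0, and 275, 62.3, 126 and 52.0 at P16. It too was lowest at P0 on average, where libraries held 2 to 12 counts, and P16 overlaps both earlier ages.

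**Figure D2:**
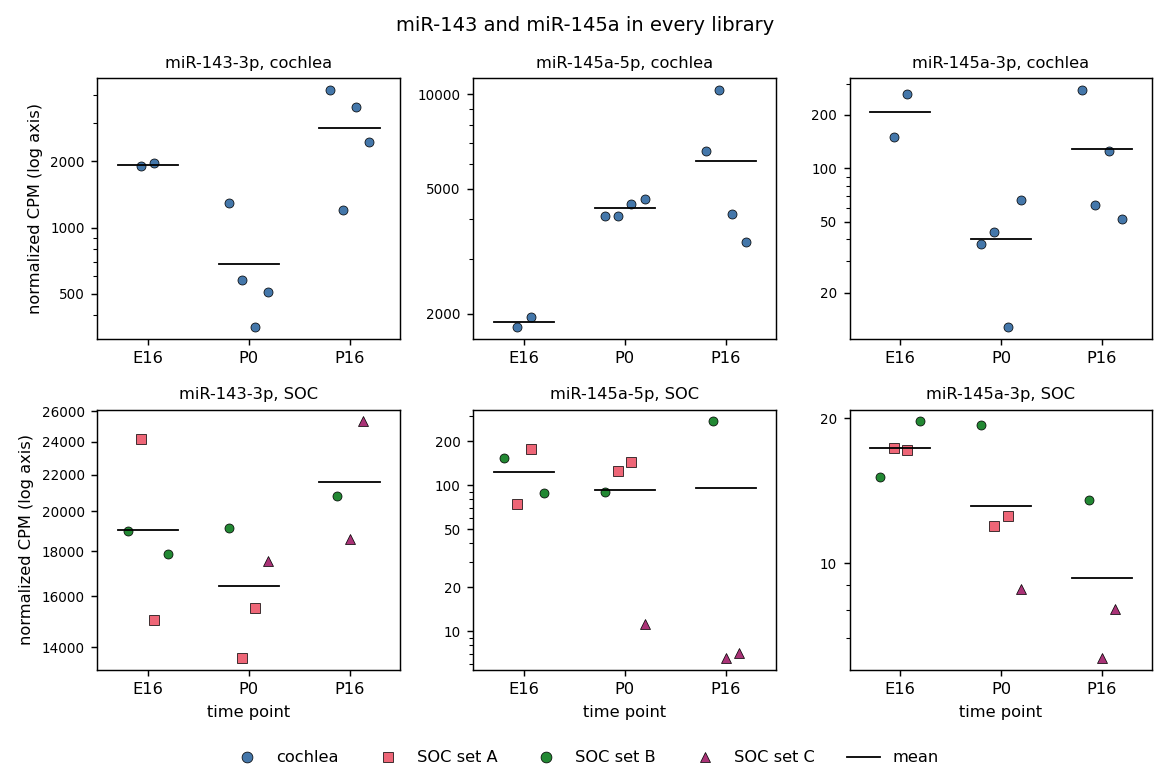
Levels of miR-143-3p, miR-145a-5p and miR-145a-3p in each library (TMM-scaled CPM), cochlea n = 2, 4 and 4 and SOC n = 4, 4 and 3 at E16, P0 and P16.

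In the levels figure of this pair, miR-143-3p and miR-145a-3p dip at P0 in the cochlea while miR-145a-5p rises. Between E16 and P0, miR-143-3p fell 2.83-fold, lower in 4 of 4 libraries (log2 fold change -1.50, SE 0.39, edgeR FDR = 0.00127), and it stayed called whichever library was left out, but not in the fit of all 21 (-1.52, edgeR FDR = 0.0867). miR-145a-3p fell 5.15-fold in 4 of 4 libraries (-2.34, SE 0.56, edgeR FDR = 0.00038), a call lost without E16 replicate 2 (-1.85, 0.0815). miR-145a-5p rose 2.30-fold in 4 of 4 libraries (1.20, SE 0.42, edgeR FDR = 0.0213). Its call was lost without E16 replicate 1 (1.06, edgeR FDR = 0.222), E16 replicate 2 (1.26, 0.145) or P0 replicate 4 (1.17, 0.0585), and with library totals (0.74, 0.168). The arms of Mir145a thus moved in opposite directions between E16 and P0, in every P0 library.

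By P16 the cochlear miR-145a-5p was 3.25-fold above E16 in 4 of 4 libraries (log2 fold change 1.70, SE 0.43, edgeR FDR = 0.000617), whichever library was left out, but it was not called in the fit of all 21 (1.76, 0.181). miR-143-3p (1.47-fold higher; 0.56, SE 0.41, edgeR FDR = 0.292) and miR-145a-3p (1.60-fold lower; -0.65, SE 0.54, edgeR FDR = 0.342) were not called against E16, but without P16 replicate 2 miR-143-3p was (0.81, 0.0474). Against P0, miR-143-3p was 4.16-fold higher at P16 (2.06, SE 0.35, edgeR FDR = 1.09e-07) and miR-145a-3p 3.21-fold higher (1.69, SE 0.52, edgeR FDR = 0.0106). Neither was called, because 1 or more P16 values fell within the P0 range. miR-143-3p was called without P0 replicate 1 (2.61) or P16 replicate 2 (2.31), and miR-145a-3p without P0 replicate 4 (2.02). miR-145a-5p did not differ between P0 and P16 (0.50, SE 0.33, edgeR FDR = 0.327). In a single fit of all 21 libraries the members called against E16 were 1 at P0 (miR-145a-3p) and 1 at P16 (miR-199a-5p), with every direction kept. The order of the members changed with age: at P0 miR-145a-5p ranked above miR-143-3p in every library, and at P16 miR-145a-5p overlapped miR-214-3p and miR-143-3p, which lay apart from each other.

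The endothelial miR-126a-3p followed miR-143-3p rather than miR-145a-5p in the cochlea: 6040 and 6276 CPM at E16, 1428, 823, 738 and 1063 at P0, and 6968, 2047, 3538 and 2743 at P16. It was lowest in every P0 library, where miR-143-3p was low as well, and its part in the result was not tested. The striated muscle miR-1a-3p was called higher at P16 against both earlier ages, where miR-143-3p was not called, and it carried the summed level of the muscle miRNAs: 474 and 549 CPM at E16, 348, 477, 218 and 327 at P0, and 4050.2, 1097, 4295 and 2208 at P16. miR-1a-3p averaged 2857 CPM at P16, miR-206-3p was not called, miR-133a-3p, miR-133a-5p and miR-208b-3p were at 0 in all cochlear libraries, and their part in the result was not tested.

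In the SOC the miR-199a/miR-214 members were present at E16 and scarce after birth. miR-199a-5p measured 17.6, 7.64, 7.39 and 15.8 CPM at E16, 0.497, 0, 0.0783 and 0.581 at P0, and 0, 0.106 and 0.0957 at P16. Its E16 values lie above all others, and its later levels rest on 0 to 11 counts per library. A count of 0 allows for up to 3 counts, or 0.278 CPM in P0 replicate 2 and 0.282 CPM in P16 replicate 1, a limit that covers counting error only. miR-214-3p measured 808, 691, 554 and 1894 CPM at E16, 15.2, 20.5, 33.2 and 189 at P0, and 9.31, 39.9 and 50.7 at P16. E16 is again above every later library, the highest later value being P0 replicate 4. miR-214-5p measured 492, 729, 647 and 339 CPM at E16, 12.3, 26.8, 13.5 and 70.7 at P0, and 4.04, 12.6 and 16.8 at P16. It too separates E16 from both later ages, which overlap.

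Between E16 and P0 in the SOC, 3 of the 6 members were called, all lower, where 6.63% of all miRNAs were called (46 of 694; median log2 fold change of all miRNAs 0.17). The last count was 22 to 57 when a library was left out: 22, 24 and 23 without E16 replicates 1, 2 and 3, and 30 and 25 without P0 replicates 2 and 3. The call of miR-199a-5p carries no weight of its own: it passed the filter on low counts only through E16, where it is high, so a difference was built into its selection here and in every SOC comparison with E16 below. Its mean was 41.9-fold lower at P0, lower in 4 of 4 libraries, and with no filter on low counts its log2 fold change was -5.34 (edgeR FDR = 2.96e-05). miR-214-5p fell 17.9-fold, lower in 4 of 4 libraries (-4.16, SE 0.68, edgeR FDR = 0.00526). miR-214-3p fell 15.3-fold, lower in 4 of 4 libraries (-3.94, SE 0.90, edgeR FDR = 0.0236). Its call was lost without P0 replicate 2 (-3.64, edgeR FDR = 0.0578) or P0 replicate 3 (-3.72, 0.0771). Library totals move the median of all SOC miRNAs by 0.13 here and change no member's call, but the share of higher miRNAs among all calls went from 17 of 46 (37.0%) to 25 of 51 (49.0%), and to 40 of 84 (47.6%) with DESeq2.

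The fall of the miR-199a/miR-214 members in the SOC was also present within sets. In set A, P0 was below E16 by 23.2-fold for miR-214-3p and 34.1-fold for miR-214-5p (n = 2 and 2), and miR-199a-5p went from 99 and 74 counts to 0 and 1. In set B, with 1 library at P0 and 2 at E16, it was below by 88.9-fold and 33.9-fold, and miR-199a-5p went from 301 and 182 counts to 11. Without set C all 3 members stayed called, with log2 fold changes of -5.64 for miR-199a-5p, -5.46 for miR-214-3p and -4.95 for miR-214-5p. Without set A, 2 libraries were left at each age and none of the 3 was called by edgeR: -4.94 (FDR = 0.0557), -3.73 (0.396) and -3.33 (0.367), where 0 of all miRNAs were called. The direction held in each of these comparisons.

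At P16 the SOC levels of the miR-199a/miR-214 members were again below E16 in every library. Of the 6 members, 3 were called between E16 and P16, all lower, where 41.2% of all miRNAs were called (286 of 694, or 206 to 363 with a library left out; 147 higher, 139 lower; median of all miRNAs 0.08). miR-214-5p fell 49.5-fold, lower in 3 of 3 libraries (log2 fold change -5.63, SE 0.83, edgeR FDR = 0.000437). miR-214-3p fell 29.6-fold, lower in 3 of 3 libraries (-4.89, SE 1.06, edgeR FDR = 0.00399). miR-199a-5p went from 656 counts in 4 libraries to 2 counts in 3, a ratio of 194 (95% counting interval 53.5 to 1607), and was lower in 3 of 3 libraries, its call being subject to the selection named above (with no filter, edgeR FDR = 5.67e-06). All 3 calls held whichever library was left out and without set A. Without set C only replicate 1 is left at P16, so no call is read from that fit. Within set B, with 1 library at P16, miR-214-3p was 145.1-fold and miR-214-5p 102.7-fold below E16.

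Between P0 and P16 in the SOC, no member was called. By edgeR 0 of the 6 were called, where 16.1% of all miRNAs were called (112 of 694; 56 higher, 56 lower); 0 had an unadjusted p under 0.05 and DESeq2 called 0 (median of all miRNAs -0.15). The count of all miRNAs, a library being left out, ranged from 57 (without P16 replicate 3; 63 without P16 replicate 2) to 247 (without P0 replicate 4; 205 without P16 replicate 1). miR-214-3p (log2 fold change -0.95, SE 0.88, edgeR FDR = 0.468) and miR-214-5p (-1.47, SE 0.68, edgeR FDR = 0.139) were lower at P16, with overlapping libraries. miR-199a-5p went from 17 counts to 2, a ratio of 4.78 (1.13 to 42.6), also with overlap (edgeR FDR = 0.223). P0 replicate 4, of set C, held the highest P0 level of each of these members, and without it miR-214-3p turned (0.57). Within set C their summed level was 4.33-fold lower at P16 (n = 2) than in this library (n = 1), and within set B 2.09-fold lower (n = 1 and 1).

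Several lists of marker miRNAs had summed levels in the SOC that were lower after E16, as those of miR-199a-5p, miR-214-3p and miR-214-5p were. The cartilage miRNAs (miR-140 and miR-455, both arms) had a summed level of 1277, 1198, 1305 and 674 CPM at E16, 154, 172, 137 and 253 at P0, and 103, 136 and 183 at P16, miR-140-5p being the most abundant at E16. All 4 of them were called lower at P0 and at P16 against E16, as were the miR-199a/miR-214 members, and none between P0 and P16. The striated muscle miRNAs summed to 347, 210.5, 140.2 and 248 CPM at E16, 27.2, 15.8, 18.3 and 11.05 at P0, and 33.4, 10.8 and 13.5 at P16. Of 4 tested, 2 were lower at each later age against E16; miR-206-3p led at E16 (mean 171 CPM), and miR-133a-3p was at 0 in every E16 library. The epithelial miRNAs summed to 1963, 1739, 1088 and 926 CPM at E16, 109.6, 195, 108 and 56.2 at P0, and 55.0, 49.7 and 146 at P16, led at E16 by miR-205-5p (mean 695 CPM). miR-183, miR-96 and miR-182, listed here as hair cell miRNAs but also known from the SOC itself, summed to 103834, 164652, 161612 and 85032 CPM at E16, 12779.5, 28710, 24308 and 4391.6 at P0, and 3501, 521 and 1457 at P16, led by miR-182-5p (mean 92115 CPM at E16). No cartilage or hair cell marker was at 0 in any SOC library, the epithelial miR-200a-3p was at 0 in every P0 library, and the part of these miRNAs, or of cells that hold them, in the fall of the members was not tested.

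The summed levels show the members beside these markers, library by library, so that a shared course can be told from a separate one. In the SOC the summed cartilage, epithelial, muscle and hair cell levels were, like that of the miR-199a/miR-214 members, below E16 in every later library (calls below), while in the cochlea the summed cartilage level rose from 6372 and 6662 CPM at E16 to 20613, 20226, 16656 and 19517 at P0 and 28168, 47834, 25392 and 30729 at P16. Up to P0 the rise was of miR-455-3p alone (log2 fold change 2.07 at P0 against E16): miR-140-5p (-2.69), miR-140-3p (-1.27) and miR-455-5p (-1.80, not called) were then below E16. From P0 to P16, miR-140-5p (2.14, edgeR FDR = 3.76e-07) and miR-140-3p (1.23, 0.00647) were called higher, and miR-455-3p was not (0.74, 0.123). The summed level was nonetheless mostly that of miR-455-3p at both ages, with means of 18712 CPM at P0 and 31360 at P16 and no overlap. Means at P0 and P16 were 185 and 818 CPM for miR-140-5p, and 344 and 807 for miR-140-3p.

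The miR-143/miR-145a members varied in the SOC with no call between ages. miR-143-3p, the most abundant member there at each age, measured 19003, 24151, 15041 and 17877 CPM at E16, 19120.3, 13608, 15529 and 17536 at P0, and 20822, 18615 and 25314 at P16. The ages overlap throughout. miR-145a-5p measured 153, 74.2, 177 and 88.9 CPM at E16, 89.9, 126, 144 and 11.3 at P0, and 274, 6.57 and 7.08 at P16. Its low values are the 3 libraries of set C, and its highest is P16 replicate 1, so the ages overlap. miR-145a-3p measured 15.1, 17.4, 17.2 and 19.7 CPM at E16, 19.4, 11.9, 12.5 and 8.84 at P0, and 13.5, 6.36 and 8.04 at P16. P16 lies below E16 in 3 of 3 libraries, whereas P0 overlaps both.

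None of these 3 members was called in the SOC at any age. miR-143-3p stayed within 1.16-fold of E16 at P0 (log2 fold change -0.21, SE 0.33, edgeR FDR = 0.764) and was close to it at P16 (0.18, SE 0.35, edgeR FDR = 0.686). miR-145a-5p gave -0.41 at P0 (SE 1.03, edgeR FDR = 0.877) and -0.36 at P16 (SE 1.12, edgeR FDR = 0.802). Within set B, with 1 library at P16, miR-145a-5p was 2.26-fold higher at P16 than at E16. Without set C, which leaves only replicate 1 at P16, its log2 change was 1.14. Without P16 replicate 1, which leaves only set C at P16, this change was -4.17 and called (edgeR FDR = 0.00324). miR-145a-3p gave -0.39 at P0 (SE 0.37, edgeR FDR = 0.585) and -0.90 at P16 (SE 0.41, edgeR FDR = 0.0932), called at P16 without P16 replicate 1 (-1.27, 0.0343) and with DESeq2 (-0.91, FDR = 0.0423). Between P0 and P16 the changes were 0.39 for miR-143-3p (edgeR FDR = 0.450), 0.04 for miR-145a-5p (0.986) and -0.50 for miR-145a-3p (0.396), with overlap, and without P16 replicate 1 miR-145a-5p was called (-3.76, 0.0107).

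The endothelial miR-126a-3p also followed the sets in the SOC, in the direction opposite to miR-145a-5p. It measured 7481, 3735 and 6155 CPM in set C and 821 to 1361 CPM in the other libraries, and its part in the levels of the members was not tested.

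The change of each member with age was then compared between the organs, as the SOC change minus the cochlear change, in a fit of all 21 libraries. Here a difference was called at an FDR under 0.05 alone. A fixed difference in level between the kits cancels in this comparison, whereas a difference in how the kits or the depth of the libraries follow a change does not. For P0 against E16, 2 of the 6 members differed, where 11.9% of all miRNAs did (65 of 545, or 46 to 93 with a library left out; 49 higher, 16 lower in the SOC; median of all miRNAs 0.52). miR-214-3p fell in the SOC and not in the cochlea, lower in 4 of 4 SOC and 0 of 4 cochlear P0 libraries (difference -4.48, SE 1.10, edgeR FDR = 0.00771). The other was miR-199a-5p, lower in 4 of 4 P0 libraries of each organ (-3.70, SE 1.05, edgeR FDR = 0.0202), whose SOC change is subject to the selection through E16 named above and rests on 0 to 11 counts at P0. Neither call held without cochlear E16 replicate 2 (-4.32, edgeR FDR = 0.0579; -3.26, 0.114), and that of miR-199a-5p was also lost without cochlear E16 replicate 1 (-4.04, 0.0579) and with the SOC counts thinned to cochlear depth (-4.10, 0.0918), where that of miR-214-3p held (-4.77, 0.000816). miR-214-5p was not called (-2.67, edgeR FDR = 0.0790), but it was without SOC P0 replicate 4 (-3.49, 0.00901), without SOC P16 replicate 1 (-2.67, 0.0469) and with the set as a covariate (-3.52, 0.000167).

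**Figure D3:**
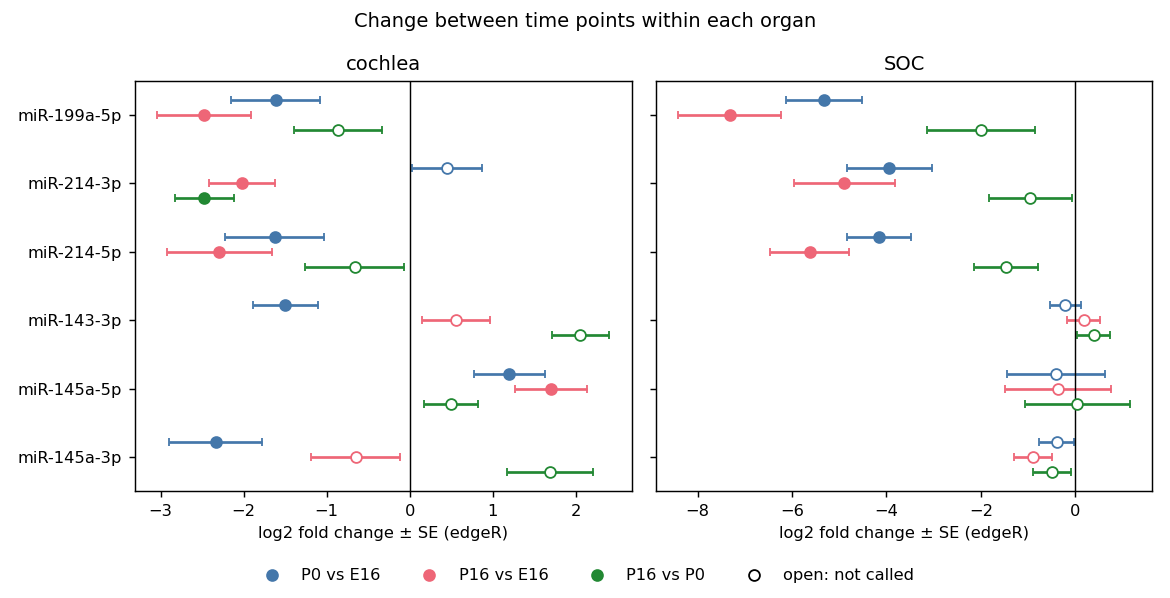
Log2 fold change of each member between ages in the cochlea (n = 2, 4 and 4) and the SOC (n = 4, 4 and 3), with standard errors.

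The figure of changes sets the organs side by side: miR-214-3p was called lower between P0 and P16 in the cochlea and between E16 and P0 in the SOC. For P16 against E16, 2 of the 6 members differed between the organs, where 16.9% of all miRNAs did (92 of 545, as few as 60 without cochlear E16 replicate 2 and over 1.5 times as many without SOC P16 replicate 1; 60 higher, 32 lower in the SOC; median of all miRNAs 0.38). miR-199a-5p, subject to the same selection, was lower in 3 of 3 SOC and 4 of 4 cochlear libraries (difference -4.87, SE 1.27, edgeR FDR = 0.0102), a call lost without cochlear E16 replicate 2 (-4.27, 0.0564) and in the thinned counts (-3.46, 0.200). miR-214-5p was also lower in 3 of 3 and 4 of 4 libraries (-3.45, SE 1.10, edgeR FDR = 0.0318). Its call was lost without cochlear E16 replicate 1 (-3.23, edgeR FDR = 0.112), E16 replicate 2 (-3.18, 0.118), P16 replicate 1 (-3.26, 0.0587) or P16 replicate 4 (-2.74, 0.104), without SOC E16 replicate 2 (-3.26, 0.0596), and with library totals (-2.73, 0.0711), but not in the thinned counts (-3.98, 0.0088). miR-214-3p was not called (-2.94, edgeR FDR = 0.0622), but it was without SOC P0 replicate 2 (-2.94, 0.0498), without SOC P0 replicate 4 (-2.95, 0.00772), in the thinned counts (-3.55, 0.0159), with the set as a covariate (-5.19, 6.16e-07) and with DESeq2 (-2.95, FDR = 0.0305).

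The miR-143/miR-145a members were not called different between the organs in this fit. miR-143-3p gave differences of 1.18 (edgeR FDR = 0.223) at P0 and -0.53 (0.679) at P16 against E16. miR-145a-5p gave -1.73 (edgeR FDR = 0.348) and -2.31 (0.259), and miR-145a-3p gave 1.89 (0.110) and -0.42 (0.780). At P0 miR-145a-3p was called with library totals (2.58, edgeR FDR = 0.0254), with the set as a covariate (2.02, 0.0191) and with DESeq2 (1.89, FDR = 0.0461). Without SOC P16 replicate 1, miR-145a-5p was called different for P16 against E16 (-5.97, edgeR FDR = 0.000214) and for P16 against P0 (-4.24, 0.00219). Between P0 and P16, edgeR called 0 of the 6 members different between the organs, where 6.42% of all miRNAs were called (35 of 545; 14 higher, 21 lower in the SOC; median of all miRNAs -0.11). Leaving out a library gave counts of all miRNAs from 20 to 106: 20, 21 and 23 without cochlear P16 replicate 1, cochlear P0 replicate 2 and SOC P16 replicate 2, and 53, 104 and 106 without cochlear P16 replicate 2, SOC P0 replicate 4 and SOC P16 replicate 1. At an unadjusted p under 0.05 there were 2, and DESeq2 called 2, miR-143-3p (-1.84, FDR = 0.0224) and miR-145a-3p (-2.44, FDR = 0.00819), whose cochlear P16 and P0 values overlapped. Both were also called with the set as a covariate (-1.87, edgeR FDR = 0.0236; -2.15, 0.0315) and without cochlear P16 replicate 2 (-1.97, 0.0453; -2.54, 0.0453). miR-143-3p was called without cochlear P0 replicate 1 (-2.22, edgeR FDR = 0.0365), and miR-145a-3p without SOC P0 replicate 4 (-2.48, 0.0267) or SOC P16 replicate 1 (-2.62, 0.0336). miR-214-3p gave 1.54 (SE 0.92, edgeR FDR = 0.309), and without SOC P0 replicate 4, the library in which it was high, 3.04 and a call (0.00486). Library totals turned no called member here, but among all calls the miRNAs higher in the SOC went from 49 of 65 (75.4%) to 132, with 11 lower (92.3%), for P0 against E16, and from 60 of 92 (65.2%) to 111 of 129 (86.0%) for P16 against E16.

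Ratios between members of the same library do not depend on its scaling. In the cochlea the summed miR-143/miR-145a members over the summed miR-199a/miR-214 members gave 0.0819 and 0.0953 at E16, 0.0920, 0.0647, 0.101 and 0.0774 at P0, and 1.05, 0.726, 0.825 and 0.669 at P16. The ratio overlapped between E16 and P0 and was higher in every P16 library. Between E16 and P0 its upper sum joins opposite changes, miR-143-3p being lower and miR-145a-5p higher in every P0 library. As miR-199a-3p has no entry, its reads are not in the miR-199a/miR-214 sum, so the ratio compares ages and does not give the level of a pair against the other. By exact permutation, two-sided, the mean log2 ratio differed by 3.29 between P0 and P16 (p = 0.0286, n = 4 and 4, smallest p possible 0.0286) and by 3.19 between E16 and P16 (p = 0.0667, n = 2 and 4, smallest p possible 0.0667), against -0.10 between E16 and P0 (p = 0.733). In the SOC the miR-143/miR-145a sum was almost all miR-143-3p (mean 19018 of 19159 CPM at E16, 16449 of 16555 at P0 and 21584 of 21689 at P16). The same ratio there was 14.5, 17.0, 12.6 and 7.997 at E16, 688, 290.3, 335 and 67.4 at P0, and 1575, 354 and 375 at P16. It rose between E16 and P0 in every library, and P0 and P16 overlap. By exact permutation, two-sided, it differed by 4.37 between E16 and P0 (p = 0.0286, n = 4 and 4, smallest p possible 0.0286) and by 5.56 between E16 and P16 (p = 0.0286, n = 4 and 3, smallest p possible 0.0286), and by 1.19 between P0 and P16 (p = 0.314). None of the 18 ratio tests had a Benjamini-Hochberg adjusted exact permutation p under 0.05, the smallest being 0.171. The permutations did not pair libraries by replicate number, although SOC libraries of E16 and P0 with the same number correlated (r = 0.251 to 0.490). Libraries of set A with different numbers correlated as well (r = 0.409 and 0.255), whereas those of set B did not (r = -0.0104), so number and set cannot be told apart here.

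**Figure D4:**
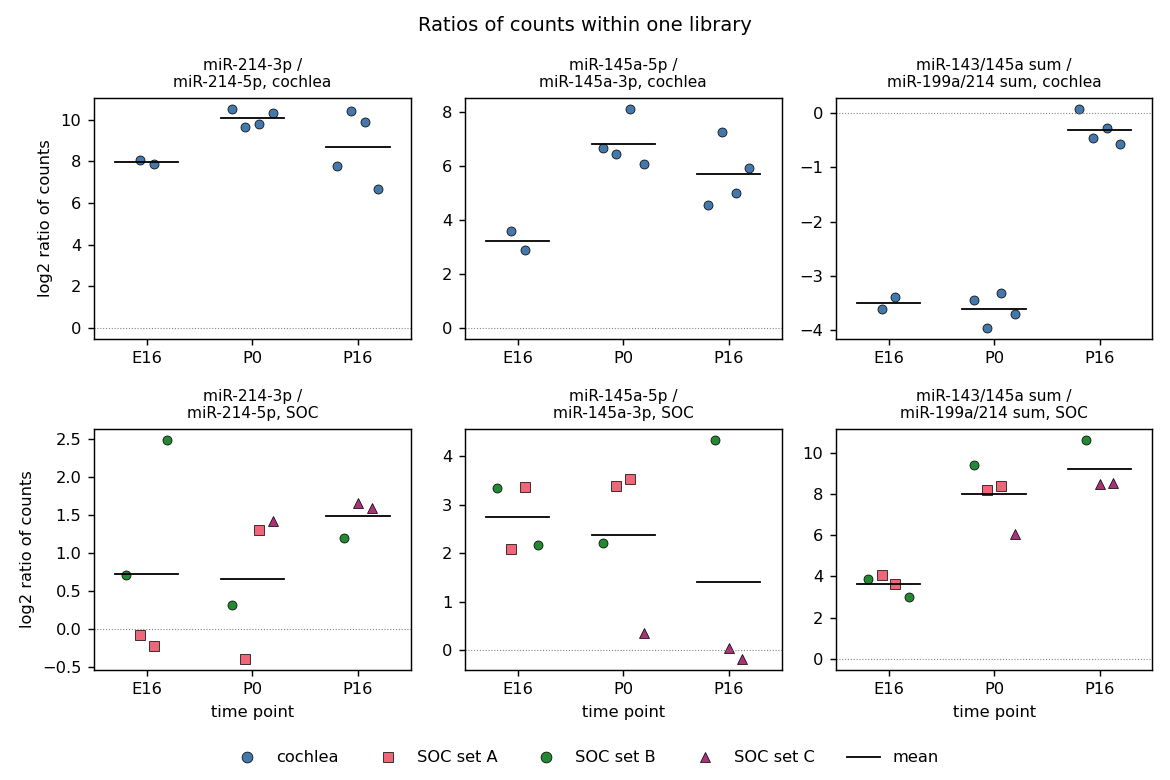
Ratios of members in each library: miR-214-3p over miR-214-5p, miR-145a-5p over miR-145a-3p, and summed miR-143/miR-145a over summed miR-199a/miR-214, cochlea n = 10 and SOC n = 11.

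The figure of ratios also gives the balance of the arms of each hairpin. miR-214-3p over miR-214-5p was 271 and 237 in the E16 cochlea, 1471, 809, 877 and 1281 at P0, and 216, 1360, 946 and 102 at P16. The ratio was higher than at E16 in every P0 library, where miR-214-5p had 7 to 18 counts and was lower while miR-214-3p was not called, and P16 spread over the whole range, miR-214-5p having 1 to 11 counts there. By exact permutation, two-sided, the mean log2 ratio was 2.09 higher at P0 than at E16 (p = 0.0667, n = 4 and 2, smallest p possible 0.0667) and changed by -1.39 from P0 to P16 (p = 0.286, n = 4 and 4, smallest p possible 0.0286). In the SOC the same ratio lay between 0.762 and 5.59 in all libraries (median 2.29), with no separation of ages; arm balance in the organs cannot be told apart from the kits.

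miR-145a-5p over miR-145a-3p was 12.0 and 7.37 in the E16 cochlea, 102, 88.7, 279.8 and 67.2 at P0, and 23.8, 155.8, 32.1 and 61.0 at P16. Each later library lies above E16, and P0 and P16 overlap. By exact permutation, two-sided, the mean log2 ratio was higher by 3.60 at P0 (p = 0.0667, n = 4 and 2) and by 2.46 at P16 (p = 0.133, n = 4 and 2) than at E16, with a smallest p possible of 0.0667. In the SOC this ratio followed the sets: 1.27, 1.03 and 0.882 in set C, and 4.27 to 20.1 in the other libraries.

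The members were also compared with all miRNAs of a mean level of at least 100 CPM for likeness of course, as the root mean square difference of log2 levels across the libraries of an organ after centring. The summed miR-199a/miR-214 members of the cochlea, carried by miR-214-3p, were most like miR-210-3p (0.33), miR-92b-3p (0.33) and miR-106b-3p (0.34), where the median of 238 miRNAs was 1.41. miR-92b-3p, for example, averaged 13998, 22593 and 3677 CPM at E16, P0 and P16. In the SOC the same sum was most like miR-455-5p (1.11), miR-140-3p (1.23) and miR-429-3p (1.52), where the median of 171 miRNAs was 2.67. The first and second of these are cartilage miRNAs and the third an epithelial miRNA; miR-455-5p averaged 338, 55.1 and 48.0 CPM. The summed miR-143/miR-145a members were most like miR-709 (0.34), miR-132-3p (0.36) and miR-30c-1-3p (0.39) in the cochlea, where the median was 1.05. In the SOC this sum, almost all of it miR-143-3p, was most like miR-192-5p (0.27), miR-379-5p (0.30) and miR-421-3p (0.33), where the median was 0.90. This likeness is a description over 10 or 11 libraries.

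The closest relatives of the members are miR-199b-5p and miR-143-5p, miR-199b-3p and miR-145b having no entry. miR-199b-5p measured 38.1 and 24.3 CPM in the E16 cochlea, 42.8, 39.0, 0 and 5.54 at P0, and 10.2, 0, 0 and 0 at P16. It was thus far scarcer than miR-199a-5p at E16, and it went from 28 counts at E16 to 2 at P16, a ratio of 9.05 (2.28 to 78.4), as miR-199a-5p fell. miR-143-5p, the other arm of the hairpin of miR-143-3p, had 6 and 9 counts at E16 and 0 or 1 later. Of these 2 relatives, 0 were called at P0 and 1 was called lower at P16 against E16 in the cochlea, 0 were called between P0 and P16, and 0 were tested in the SOC.

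Some markers of epithelium and all of those of neurons were lower after E16 in the cochlea, as miR-199a-5p and miR-214-5p were. The summed level of the epithelial miRNAs was 14737 and 22575 CPM at E16, 7803, 6453, 5657 and 6668 at P0, and 7049.6, 2498, 5583 and 5776 at P16. miR-429-3p (log2 fold change -2.14 at P0) had the highest mean of the list at each age. At P0 miR-200c-3p came close to it (means 3385 and 2645 CPM for miR-429-3p and miR-200c-3p). The neuronal miRNAs (miR-124-3p, miR-9-5p, miR-9-3p and miR-128-3p) summed to 4316 and 3805 CPM at E16, 1342, 779, 642 and 991 at P0, and 1173, 1058, 1454 and 1115 at P16. Both sums lie above all later ones at E16, although at P0 miR-205-5p was higher than at E16 (1.00) and miR-200c-3p close to it (0.05), neither called. None of the neuronal miRNAs was at 0, and their part in the fall of the members was not tested.

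The marker miRNAs were counted in the same comparisons as the members, where 24.4% of all cochlear miRNAs were called for P0 against E16, 29.6% for P16 against E16 and 10.5% for P16 against P0. Of 4 cartilage miRNAs there, 1 was higher and 2 lower at P0 against E16, 1 higher at P16 against E16, and 2 higher at P16 against P0 (medians -1.54, 0.04 and 1.57). Of 3 hair cell miRNAs, 0 were called in each comparison, and of 7 epithelial miRNAs 3 were lower at P0 and 3 at P16 against E16 and 1 lower at P16 against P0. Of 4 neuronal miRNAs, 4 were lower at each later age than at E16 and 1 was higher at P16 than at P0. miR-126a-3p was lower at P0 than at E16 and higher at P16 than at P0. Of 6 blood miRNAs, 1 was higher and 5 lower at P0 and 1 higher and 3 lower at P16 against E16, and 2 were higher at P16 against P0. The most abundant was miR-223-3p at E16 (mean 1448 CPM) and miR-150-5p at P0 and P16. The lower ones include miR-451a, with 4 and 9 counts at E16 and 0 in every later library, which passed the filter only through E16, so its calls carry no weight. The summed blood level was 2110 and 2619 CPM at E16, and 2081, 2722, 3146 and 2996 CPM at P0. At P16 it was 17629, 29453, 7176 and 6326 CPM, and its part in the rise of miR-145a-5p was not tested. Of 2 striated muscle miRNAs, 1 was lower at P0 and 1 higher at P16 against E16, and 1 was higher at P16 against P0, as miR-143-3p was without the rule on overlap.

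In the SOC, where the miR-199a/miR-214 members fell, the cartilage miRNAs had medians of -2.66, -2.66 and -0.09 for P0 against E16, P16 against E16 and P16 against P0, all miRNAs having 0.17, 0.08 and -0.15 with 6.63%, 41.2% and 16.1% called. Of 3 hair cell miRNAs 1, 3 and 3 were lower (medians -2.85, -6.46 and -4.13), so that they, unlike the members, were also called lower between P0 and P16. Of 4 epithelial miRNAs 3, 3 and 0 were lower, and of 4 striated muscle miRNAs 2, 2 and 0. Of 4 neuronal miRNAs 0 were called at P0, 1 was higher and 1 lower at P16 against E16, and 0 at P16 against P0, whereas miR-126a-3p was called in 0 of the comparisons. Of 7 blood miRNAs 1 was higher at P0, 2 were higher and 1 lower at P16 against E16, and 1 was higher at P16 against P0.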

How the data were processed

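Small RNA was sequenced from pools of mouse cochlea and SOC, and the values used here are the counts of mature miRNAs deposited by the authors, 1647 miRNAs in 21 libraries. Per the submitters' processing notes, reads were aligned to mm10 with Bowtie2 2.2.5 and compared with DESeq2; the methods of the paper name Bowtie and a MirGeneDB reference, whereas the table carries miRBase names. How reads matching several places were counted is not given in the sources used here.

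Within an organ, counts of the whole table were tested with edgeR 4.0.16, run under R 4.3.3 (quasi-likelihood test, TMM scaling, Benjamini-Hochberg adjustment over all miRNAs tested), keeping miRNAs with a level above 1 CPM in 2 or more libraries of an age (896 in the cochlea, 694 in the SOC). A miRNA was called at an FDR under 0.05, a change over 1.5-fold and no overlap between the groups. The difference between organs used a fit of all 21 libraries (545 miRNAs) and was called at an FDR under 0.05 alone, with no rule on fold change or overlap. Ratios used 0.5 counts added and an exact two-sided permutation test, adjusted over 18 tests. Counting intervals are exact, at 95%. DESeq2 1.42.0, limma 3.58.1, Python 3.11.15, pandas 2.3.3, numpy 2.4.6, scipy 1.17.1 and matplotlib 3.10.9 served for alternatives, tables and figures.

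Alternatives were DESeq2, RLE factors, library totals, no filter, at least 10 counts in every library, no rule on overlap, a 2-fold change, replicate number as a block, the library set as a covariate, totals without miR-99b-5p and miR-191-5p, all 21 libraries in a single fit, SOC counts thinned to 196885, 5 counts added to ratios, likeness from 500 CPM, and each library left out; omission of set A or of set C was added after the data had been seen. Samples with the same replicate number correlated in the SOC between P0 and E16 (4 of 4 pairs over 0.1 after centring within age, r = 0.251 to 0.490), judged from the values alone. Pairs of set A with different numbers correlated as well (r = 0.409 and 0.255), and the pair of set B with different numbers did not (r = -0.0104).

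The miRNAs named are the 7 members, the detected miRNAs of the marker lists (relatives, cartilage, hair cell, epithelium, neuron, endothelium, blood, striated muscle; 34 of 39 names have an entry) and the 3 miRNAs of at least 100 CPM most like each sum in each organ, by root mean square difference of log2 levels with a prior count of 2. Members and lists were chosen with earlier results of these data known. Cochlear libraries hold 124400 to 447419 counts (median 196885) and SOC libraries 8309669 to 18053698 (median 11706138), so a single count is a larger level in the cochlea. No library was a copy of another (chi-square per degree of freedom at least 5.95 within a group). The scripts were tested on simulated data.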

Additional observations from a re-analysis of the deposited data

Results flagged for a closer look

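In the SOC at P0, miR-214-3p measured 189 CPM in replicate 4, against 15.2, 20.5 and 33.2 CPM in the other libraries, a value far from its group (gap over range 0.896). Such a flag arises by chance in about 1 of 20 groups of this size, and 1 value was far out among 24 groups tested. The library belongs to set C, and the cause was not tested.

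The change with age of 3 members differed between the organs by edgeR: miR-199a-5p for P0 against E16 (SOC change minus cochlear change -3.70, FDR = 0.0202) and for P16 against E16 (-4.87, FDR = 0.0102), miR-214-3p for P0 against E16 (-4.48, FDR = 0.00771), and miR-214-5p for P16 against E16 (-3.45, FDR = 0.0318). Across all miRNAs 11.9% differed for P0 against E16 and 16.9% for P16 against E16. miR-199a-5p passed the filter in the SOC only through E16, where it is high, so its difference carries no weight of its own. Without cochlear E16 replicate 2 none of these calls held (-3.26, FDR = 0.114; -4.27, 0.0564; -4.32, 0.0579; -3.18, 0.118, in the order above). In SOC counts thinned to cochlear depth the calls of miR-199a-5p were lost (-4.10, FDR = 0.0918; -3.46, 0.200), and those of miR-214-3p (-4.77, 0.000816) and miR-214-5p (-3.98, 0.0088) held. Organ and kit cannot be told apart.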

How the results depend on the processing

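Members called in the cochlea for P0 against E16 went from 5 to 2 with at least 10 counts in every library, where 3 members were no longer tested, and to 1 in a single fit of all 21 libraries, where miR-145a-3p was kept and miR-143-3p had an edgeR FDR of 0.0867. Leaving out a library gave 1 to 5: 2 without E16 replicate 1, 1 without E16 replicate 2 and 3 without P0 replicate 4, a lone E16 library being given the spread of the other groups. For P16 against E16, 4 became 2 with at least 10 counts (3 members not tested) and 1 in the fit of all 21 (miR-199a-5p), and leaving out a library gave 4 to 5. For P16 against P0, 1 became 3 with no rule on overlap, and leaving out a library gave 1 to 2 (2 without P0 replicate 1, P0 replicate 4 or P16 replicate 2). In the SOC, members called for P0 against E16 went from 3 to 0 without set A, and 2 to 3 were called with a library left out; for P16 against E16 the range was 3 to 5 (5 without P16 replicate 1), and for P16 against P0 0 to 1 (1 without P16 replicate 1). Members that differed between the organs went from 2 to 4 with the set as a covariate and to 1 in thinned counts for P0 against E16 (0 to 3 with a library left out: 1 without cochlear E16 replicate 1, 0 without replicate 2). They went from 2 to 1 with library totals for P16 against E16 (0 to 3; 1 without cochlear E16 replicate 1, cochlear P16 replicate 1 or 4, or SOC E16 replicate 2, 0 without cochlear E16 replicate 2). For P16 against P0 they went from 0 to 2 with DESeq2 and to 2 with the set as a covariate (0 to 2; 1 without cochlear P0 replicate 1, 2 without cochlear P16 replicate 2, SOC P0 replicate 4 or SOC P16 replicate 1). Apart from the replicate block (below), other alternatives moved no member count by over 1.5 times.

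Counts of all miRNAs called went in the cochlea from 219 to 93 (at least 10 counts) and 110 (all 21 in a fit) for P0 against E16, from 265 to 104 and 176 for P16 against E16, and from 94 to 54 and 57 for P16 against P0. In the SOC they went from 46 to 84 (DESeq2), 96 (set as covariate), 91 (without set C) and 0 (without set A) for P0 against E16. For P16 against E16 they went from 286 to 189 (at least 10 counts) and 103 (without set A), and for P16 against P0 from 112 to 12 (without set A). Without set C only replicate 1 is left at P16 in the SOC, so no count is given for comparisons with P16. Between organs they went from 65 to 120 (DESeq2), 132 higher with 11 lower (totals) and 169 (covariate), from 92 to 61 (thinned), and from 35 to 78 (DESeq2) and 93 (covariate). Ranges with a library left out are in the text above. Of the 3 miRNAs most like a sum, 0 were kept from 500 CPM for miR-199a/miR-214 in the SOC and for miR-143/miR-145a in the cochlea. All 3 average under 500 CPM in each case (at most 156 and 194 CPM), so the higher limit removed them whatever their likeness.

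Directions turned mainly for miR-145a-5p in the SOC: 0.21 with the set as a covariate for P0 against E16; 0.58 with the covariate and 1.14 without set C for P16 against E16; and, for P16 against P0, -0.0018 (DESeq2), -0.0018 (RLE), -0.29 (totals), -0.057 (no filter) and -0.017 (totals without miR-99b-5p and miR-191-5p). With a library left out it ranged from -0.70 to 0.0396 (highest without P0 replicate 4), from -4.17 (without P16 replicate 1) to 0.17 (without P16 replicate 2; 0.16 without replicate 3), and from -3.76 (without P16 replicate 1) to 0.50. miR-214-3p in the SOC for P16 against P0 ranged from -1.27 to 0.57 (highest without P0 replicate 4). Between organs, totals turned miR-143-3p (0.096) and miR-145a-3p (0.20) for P16 against E16, and thinning turned miR-199a-5p for P16 against P0 (0.64). With a library left out, miR-145a-3p ranged from -0.73 to 0.34 for P16 against E16 (above 0 without cochlear E16 replicate 1 or P16 replicate 1) and miR-214-5p from -1.21 to 0.0387 for P16 against P0 (highest without SOC P0 replicate 4). The log2 ratio of miR-214-3p to miR-214-5p in the cochlea for P16 against E16 was -0.48 with 5 counts added. With a library left out, P0 against E16 ranged from -0.21 to 0.0213 for miR-143/miR-145a over miR-199a/miR-214 in the cochlea, and in the SOC from -0.38 to 0.52 for miR-214-3p over miR-214-5p and from -0.76 to 0.30 for miR-145a-5p over miR-145a-3p. The cause was not tested.

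With replicate number as a replicate block, 3 cochlear members were called for P0 against E16, miR-199a-5p (edgeR FDR = 0.0707) and miR-214-5p (0.0991) not being called. Calls among all 896 miRNAs also went down, from 219 to 155. These samples share only a number (1 of 2 pairs over 0.1, r = -0.0244 to 0.107). The block changed no member's call in the SOC, turned miR-214-3p (0.22) and miR-145a-5p (-1.63) for P16 against P0, where 1 of 3 pairs was over 0.1, and changed no other call. No pair was over 0.1 for P16 against E16 in the cochlea (2 pairs) or the SOC (3 pairs), or for P16 against P0 in the cochlea (4 pairs).

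The ratio of miR-199a-5p to miR-199a-3p could not be computed, miR-199a-3p having no entry. Cochlear libraries hold at most 447419 counts, so miR-199a-5p, miR-214-5p and miR-145a-3p rest on few counts there, and intervals cover counting error only. Omission of set A or C was chosen after the data had been seen.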
